A study of Homo sapiens with 64 samples.

Results

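The 10 genes described here were 3 CCN genes (CCN1, CCN2 and CCN3, formerly CYR61, CTGF and NOV), 3 genes that answer to YAP and TEAD (AMOTL2, ANKRD1 and LATS2) and 4 genes of the factors themselves (YAP1, WWTR1, TEAD1 and TEAD4). They were taken by symbol from the 54127 genes counted in every library, and they were selected on values of these same libraries, so their differences are given as descriptions without p-values, and counts of members past a threshold stand beside the same share over all genes. The study labeled spheroids of 6 colorectal cancer cell lines with CFSE, a fluorescent dye that dividing cells share out between their daughters, and sorted label-retaining cells (LRCs, the brightest cells) from the bulk of cycling cells (non-LRCs) on day 6. HT55 and SW948 belong to colorectal cancer subtype CCS1, RKO and SW48 to CCS2, and DLD1 and HCT15 to CCS3, and each line gave 4 libraries of LRCs and 4 of non-LRCs. A further 16 libraries were unsorted DLD1 cultures, CFSE-labeled or unlabeled (recorded as DMSO), on day 1 or on day 5 of the sample records (day 6 in the series description), with 4 libraries a group. All 64 libraries came from established lines kept as spheroids without attachment, with bFGF and EGF in the medium, so the growth factors were shared by every group. No line stands for more than 1 tumor, and the sources used here do not state that all 6 lines came from different tumors.

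YAP and TAZ (the product of WWTR1) are coactivators that enter the nucleus and bind TEAD proteins on DNA when the Hippo kinases are inactive. LATS kinases phosphorylate them and hold them in the cytoplasm, and AMOTL2, a protein of the angiomotin family, binds YAP at cell junctions. CCN1 and CCN2 are secreted matrix-associated proteins and are among the best known YAP-TEAD targets, as is ANKRD1, an ankyrin repeat protein of the nucleus and the sarcomere. AMOTL2 and LATS2 are themselves induced by YAP and so form a feedback on it. In the intestine this pathway is known for its part in regeneration after injury.

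TEAD proteins bind the letters GGAATG. The promoters of CCN2, ANKRD1 and AMOTL2 are shown, as the known targets in which a match was found. Each line gives the 250 bases before the start of the gene on its own strand, from RefSeq on GRCh38.p14, with GGAATG or its reverse complement CATTCC in capitals.
CCN2, minus strand of chr6:131951373-131951622: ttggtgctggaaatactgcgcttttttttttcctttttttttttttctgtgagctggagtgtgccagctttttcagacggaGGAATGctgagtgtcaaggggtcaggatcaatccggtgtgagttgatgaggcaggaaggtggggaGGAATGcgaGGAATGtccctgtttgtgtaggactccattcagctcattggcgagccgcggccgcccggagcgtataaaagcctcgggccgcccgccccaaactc
ANKRD1, minus strand of chr10:90921088-90921337: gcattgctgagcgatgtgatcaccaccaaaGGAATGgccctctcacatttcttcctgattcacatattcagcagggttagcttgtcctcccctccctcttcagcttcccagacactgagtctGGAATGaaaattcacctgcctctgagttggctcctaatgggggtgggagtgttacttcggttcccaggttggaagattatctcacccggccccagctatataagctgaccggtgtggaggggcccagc
AMOTL2, minus strand of chr3:134374448-134374697: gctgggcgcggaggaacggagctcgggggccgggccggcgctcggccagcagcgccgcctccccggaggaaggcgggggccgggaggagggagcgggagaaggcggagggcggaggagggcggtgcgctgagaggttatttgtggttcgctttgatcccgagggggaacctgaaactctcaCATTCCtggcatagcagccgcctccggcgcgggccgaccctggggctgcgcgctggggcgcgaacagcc
CCN2 held 3 matches, beginning 169, 104 and 95 bases before the start, ANKRD1 held 2, at 220 and 128 bases, and AMOTL2 held 1, at 69 bases, in the reverse orientation. YAP1 held 1 match at 162 bases, whereas LATS2, also a known target, the other AMOTL2 start and both WWTR1 starts held none in this window. The promoter set used had entries for 6 members, so CCN1, CCN3, TEAD1 and TEAD4 were not searched. Of 35116 promoters of the same length, 11.9% held at least 1 match and 0.940% held 2 or more. A match describes letters only, and binding was not measured.

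Before the members are compared, several libraries need to be set apart. Over 16899 genes, 4 sorted libraries correlated better on average with the other population of their line than with their own, namely SW948 LRC replicate 4 (mean r of 0.9942 against 0.9872), HT55 non-LRC replicate 2 (0.9896 against 0.9851), HCT15 LRC replicate 4 (0.9899 against 0.9882) and HCT15 non-LRC replicate 2 (0.9893 against 0.9890). In the CFSE-labeled day 1 controls, replicates 1 and 2 correlated with each other at r of 0.9923 and replicates 3 and 4 at 0.9943, but r was at most 0.9769 between these pairs. Unlabeled day 1 replicate 4 correlated with the other 3 libraries of its group at 0.9725 to 0.9788. Depth ran from 12237225 to 20913455 reads on genes. The 7 colon epithelial markers summed to 216 to 323 CPM (counts scaled to library size) in RKO and to at least 2418 CPM in any other sorted library, but single markers were low elsewhere too. KRT20 was at no more than 0.259 CPM in RKO, 0.671 CPM in SW48 and 4.09 CPM in HCT15, and VIL1 at no more than 0.855 CPM in RKO and 4.71 CPM in SW48. Fibroblast markers summed to at most 14.3 CPM and endothelial markers to at most 3.55 CPM in sorted libraries. The 5 leukocyte markers summed to 992 to 1572 CPM in RKO, where CD68 made up nearly all of it, to 1132 to 1698 CPM in SW948, where LYZ did, and to at most 121.5 CPM (HT55 LRCs) in the other sorted libraries. Of this list CD3E was at 0 in every library, and PTPRC reached 22.1 CPM in SW48 and at most 0.0679 CPM in the other sorted libraries.

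The 10 genes differed widely in level and in how far the lines stood apart. Scaled to exon length as RPKM (CPM per kilobase of merged exon), YAP1 was the highest over the 24 non-LRC libraries with a mean of 51.6, followed by CCN1 at 31.7, TEAD1 at 17.0, TEAD4 at 12.9, AMOTL2 at 9.35, LATS2 at 6.58, WWTR1 at 5.97, CCN2 at 1.42, CCN3 at 1.40 and ANKRD1 at 0.0529. The TEAD genes were more even between lines than CCN1, since line means ran from 9.38 to 21.2 RPKM for TEAD1 and from 9.14 to 17.7 RPKM for TEAD4, against 0.170 to 156 RPKM for CCN1. All 9 members that could be tested differed between the lines in non-LRCs (edgeR F-test), beside 98.3% of all genes tested. ANKRD1 had too few reads for that test.

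In CPM, CCN1 was ordered RKO at 577 ± 23.2 (SD, n = 4 in each line), SW48 at 60.9 ± 26.1, HCT15 at 46.0 ± 19.4, DLD1 at 16.5 ± 3.87, HT55 at 1.51 ± 0.710 and SW948 at 0.630 ± 0.358, with overlap between SW48 and HCT15 and between HT55 and SW948. WWTR1 was ordered RKO at 171 ± 16.1, HT55 at 88.3 ± 18.8, HCT15 at 17.5 ± 4.15, SW48 at 9.88 ± 1.33, DLD1 at 8.89 ± 1.07 and SW948 at 3.59 ± 0.449 CPM, where SW48 and DLD1 overlapped. YAP1 ran from HT55 at 556 ± 95.7 CPM to RKO at 180 ± 19.5 CPM, with DLD1, HCT15, SW948 and SW48 overlapping in between. CCN2 was highest in HT55 at 7.66 ± 3.60 CPM and lowest in SW48 at 0.239 ± 0.0884 CPM. AMOTL2 was highest in SW48 at 130 ± 26.4 CPM and lowest in RKO at 13.7 ± 1.66 CPM, and LATS2 was highest in HT55 at 60.5 ± 8.29 CPM and lowest in SW48 at 19.7 ± 3.06 CPM. The line with the most CCN1 and WWTR1, RKO, thus had the least YAP1 and AMOTL2.

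Between LRCs and non-LRCs across the 6 lines, 5 of the 6 CCN genes and targets were higher in LRCs and 3 of the 4 factors did not pass the test. The fitted log2 difference was 0.97 ± 0.18 (SE) for CCN2, 0.74 ± 0.13 for CCN3, 0.39 ± 0.06 for LATS2, 0.34 ± 0.08 for AMOTL2 and 2.09 ± 0.29 for ANKRD1. TEAD4 was lower in LRCs by a small margin, at -0.17 ± 0.04. CCN1 (0.19 ± 0.14), WWTR1 (0.05 ± 0.08), TEAD1 (0.03 ± 0.06) and YAP1 (-0.00 ± 0.05) did not pass the threshold, an edgeR adjusted p of 0.05 over all genes. DESeq2 gave 0.46 for CCN1, past its threshold. In all, 6 of 10 members passed, 5 of them higher, beside 22.9% of all 16603 genes tested, and nothing is read from that count because the genes were chosen by this contrast. The median log2 difference was 0.27 over the members and 0.01 over all genes. ANKRD1 reached the minimum of 10 reads in 4 libraries only through LRC libraries, so its place in that count follows from the filter. Without the 4 libraries nearer to the other population CCN2 was at 1.08 ± 0.18 and LATS2 at 0.43 ± 0.06, but those libraries were left out for their likeness to the other population, which by itself tends to widen the difference. Leaving out RKO brought CCN1 to 0.49 and past the threshold and took TEAD4 (-0.13) below it. As each library is a population of cells, a change in the share of cells with the RNA and a change in RNA per cell cannot be told apart.

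**Figure D1:**
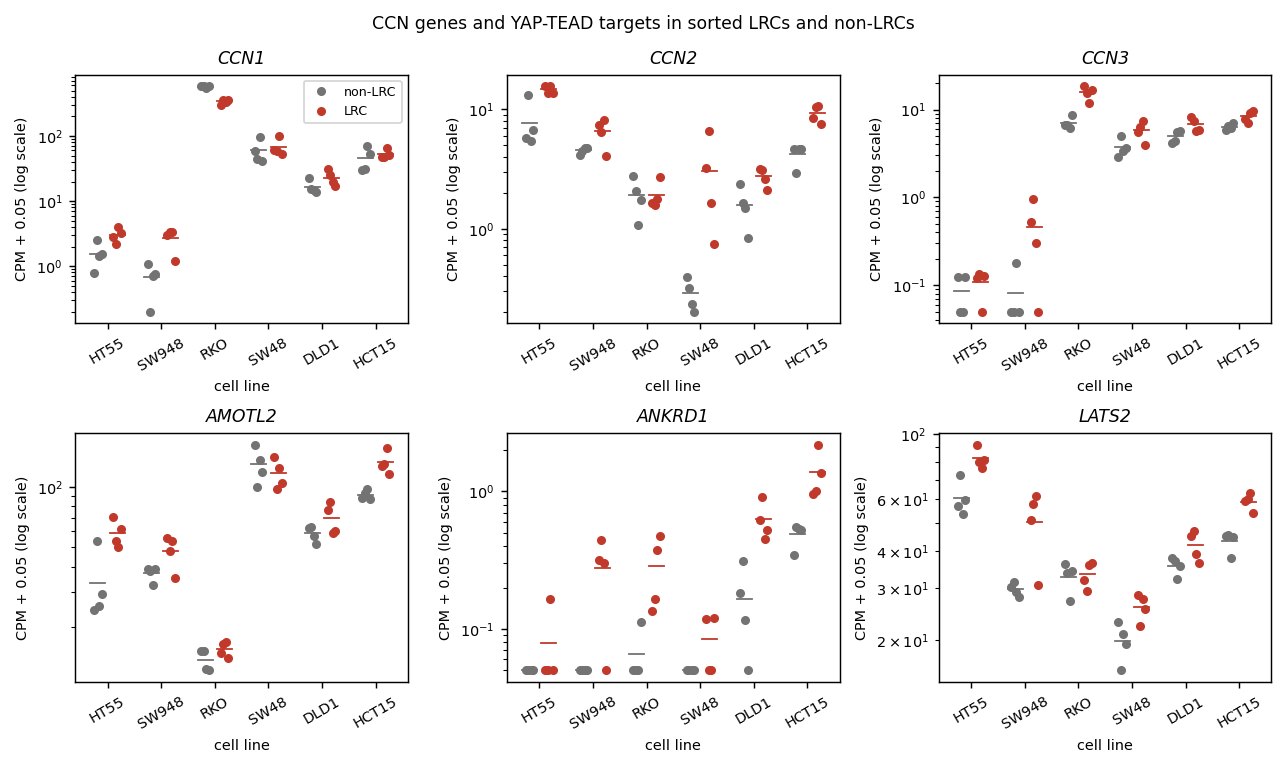
CPM plus 0.05, on a log axis, of the CCN genes and YAP-TEAD targets in each sorted library, by line, with non-LRCs in gray, LRCs in red and a bar at the mean of 4 libraries. CCN1 in RKO is the case in which all 4 LRC libraries (303 to 361 CPM) lie below all 4 non-LRC libraries (543 to 593 CPM), and CCN2 in SW48 shows the widest gap upward.

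**Figure D2:**
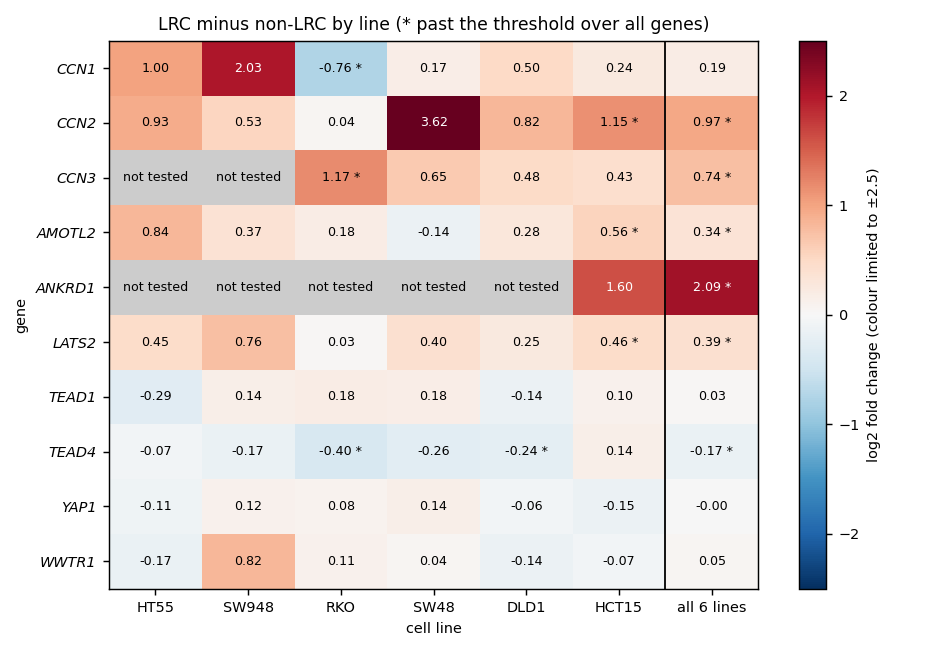
Log2 fold change of LRCs against non-LRCs for each of the 10 genes (rows) in each line and across all 6 (columns), with an asterisk where the gene passed the threshold over all genes and gray where too few reads were counted. The CCN and target rows are mostly red, and the YAP1 and TEAD1 rows stay between -0.29 and 0.18.

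CCN1 (GRCh37 1:86046444-86050272, plus strand) had LRC differences of opposite sign in different lines. In RKO it was counted at 591, 593, 543 and 580 CPM in non-LRCs and at 303, 361, 339 and 359 CPM in LRCs. All LRC libraries were below all non-LRC libraries, a log2 difference of -0.76 ± 0.07. In SW948 non-LRCs it was at 1.02, 0.150, 0.646 and 0.707 CPM, and in LRCs at 2.94, 3.35, 3.27 and 1.13 CPM. These did not overlap either, in the opposite direction, with a log2 difference of 2.03 ± 0.42 that rested on 39 reads in non-LRCs and 169 in LRCs. The low LRC library was replicate 4, the one that resembled non-LRCs across genes. HT55 stood between, at 0.725, 2.45, 1.39 and 1.48 CPM in non-LRCs and 2.73, 2.10, 3.93 and 3.20 CPM in LRCs, where replicate 2 of each population made the overlap. In SW48, DLD1 and HCT15 the populations overlapped, with log2 differences of 0.17 to 0.50.

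CCN2 (6:132269316-132272512, minus strand) had a log2 LRC difference of 0.53 to 3.62 in every line but RKO, where it was 0.04 ± 0.28. Its exons overlap LINC01013 on the other strand, and the strand setting of the counting is not given in the sources used here, so reads of these genes may be mixed. In HCT15 it was at 4.59, 2.87, 4.62 and 4.56 CPM in non-LRCs and at 8.33, 10.3, 10.5 and 7.48 CPM in LRCs, without overlap and with a log2 difference of 1.15 ± 0.18. SW48 non-LRCs held 5, 4, 3 and 2 reads of it (0.153 to 0.349 CPM), whereas SW48 LRCs were at 3.18, 6.57, 1.58 and 0.695 CPM. The ratio of 164 to 14 reads there was 12.2, with an exact 95% interval of 7.07 to 22.8 that covers counting error only, and CCN2 met the read minimum in SW48 only through LRCs. HT55 was at 5.72, 13.0, 5.33 and 6.58 CPM in non-LRCs and at 15.5, 13.6, 15.6 and 13.5 CPM in LRCs, so the populations did not overlap, and the high non-LRC library was the one that resembled LRCs. SW948 LRC replicate 4 (3.97 CPM) lay just below the non-LRCs (4.06 to 4.69 CPM), and the other LRC libraries of that line were at 6.43 to 8.11 CPM. RKO overlapped throughout, at 1.02 to 2.71 CPM in non-LRCs and 1.54 to 2.63 CPM in LRCs.

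CCN3 (8:120428686-120436674, plus strand), a CCN protein best known as an inhibitor of proliferation, was higher in LRCs of RKO, where CCN1 was lower. RKO non-LRCs were at 6.54, 6.54, 6.03 and 8.57 CPM and RKO LRCs at 18.6, 15.5, 12 and 16.6 CPM, a log2 difference of 1.17 ± 0.15 without overlap. HCT15 also showed no overlap (5.77 to 6.95 against 7.06 to 9.50 CPM). The ranges overlapped in DLD1 (4.11 to 5.71 against 5.63 to 8.20 CPM) and more widely in SW48 (2.86 to 4.91 against 3.89 to 7.37 CPM). The log2 differences there were 0.48 and 0.65. In SW948 the gene had 2 reads over all 4 non-LRC libraries and 7, 14, 4 and 0 reads in the LRC libraries, a ratio of 11.6 with an exact 95% interval of 2.89 to 101. HT55 was at the limit of detection in both populations, with 2 and 3 reads in all. CCN3 was therefore not tested in those lines.

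LATS2 (13:21547175-21635725, minus strand) had a log2 LRC difference of 0.25 to 0.76 in every line but RKO, where it was 0.03 ± 0.10. It was at 56.7, 72.4, 53.4 and 59.5 CPM in HT55 non-LRCs and at 91.8, 79.9, 76.7 and 81.4 CPM in HT55 LRCs, without overlap. The HCT15 populations were also apart, at 38.0 to 45.4 against 53.7 to 62.7 CPM, a log2 difference of 0.46 ± 0.08. In SW948 the first 3 LRC libraries were at 50.8, 57.9 and 61.4 CPM and replicate 4 was at 30.7 CPM, within the non-LRC range of 28.0 to 31.5 CPM. In DLD1 (32.2 to 37.8 against 36.5 to 46.8 CPM) and SW48 (15.8 to 23.0 against 22.2 to 28.4 CPM) the ranges overlapped at their edges.

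AMOTL2 (3:134074189-134094321, minus strand, with exons that overlap the pseudogene RPL39P5 on the same strand) was higher in LRCs of HCT15, at 128, 131, 156 and 116 CPM against 87.6, 93.0, 97.2 and 87.2 CPM, without overlap. HT55 non-LRCs were at 24.2, 53.7, 25.6 and 29.3 CPM and LRCs at 71.0, 53.4, 50.2 and 61.5 CPM, so that non-LRC replicate 2 alone made the overlap. SW48 differed in sign, with 100 to 162 CPM in non-LRCs and 97.7 to 142 CPM in LRCs, a log2 difference of -0.14 ± 0.16 within the spread of the libraries. ANKRD1 (10:92671853-92680844, minus strand) was near the limit of detection. HCT15 had 28 reads of it in non-LRCs and 88 in LRCs, a ratio of 3.06 with an exact interval of 1.98 to 4.87, and DLD1 had 7 and 33, a ratio of 4.93 (2.14 to 13.2). SW948 had 0 reads in non-LRCs, which allows up to 0.0486 CPM, and 14 in LRCs, so the LRC level was at least 4.32-fold higher when the non-LRCs are set at 3 reads over the group. RKO had 1 read in non-LRCs and 15 in LRCs, a ratio of 14.3 (2.20 to 603), and HT55 and SW48 had 0 and 2. Fitted fold changes of ANKRD1 depend on the prior count for these lines.

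The 4 factors did not shift together, and TEAD4 alone of them passed across the 6 lines, lower in LRCs. YAP1 (11:101981178-102104155, plus strand, with exons that overlap ENSG00000254422 on the other strand) differed by -0.15 to 0.14 on the log2 scale in the 6 lines, and its populations overlapped in each. TEAD1 (11:12695968-12966284, plus strand) differed by -0.29 to 0.18 and also overlapped in each line. TEAD4 (12:3068496-3149842, plus strand) was lower in LRCs without overlap in RKO, at 34.5, 40.1, 44.1 and 41.8 CPM in non-LRCs and 32.0, 29.4, 32.0 and 28.9 CPM in LRCs. It was also lower in DLD1, at 20.1 to 21.9 against 16.9 to 18.3 CPM. Its log2 difference was -0.26 ± 0.11 in SW48, -0.17 ± 0.09 in SW948 and -0.07 ± 0.12 in HT55, but 0.14 ± 0.10 in HCT15. WWTR1 (3:149235022-149454501, minus strand, with exons that overlap WWTR1-AS1 on the other strand) stood out in SW948, its lowest line, at 3.37, 3.08, 3.88 and 4.05 CPM in non-LRCs and 7.35, 8.33, 6.29 and 3.61 CPM in LRCs. There LRC replicate 4 fell among the non-LRCs once more.

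Each line was also fitted alone. In RKO 3 of 9 members passed (CCN3 higher, CCN1 and TEAD4 lower) beside 41.5% of all genes, in HCT15 3 of 10 (CCN2, AMOTL2 and LATS2, all higher) beside 0.977%, and in DLD1 1 of 9 (TEAD4, lower) beside 14.6%. SW48 gave 0 of 9 beside 0.796% of all genes, HT55 0 of 8 beside 0% and SW948 0 of 8 beside 0% (edgeR). At an unadjusted p under 0.05 the counts were 4 members in SW48, 5 in HT55 and 5 in SW948, beside 13.1%, 7.51% and 17.2% of all genes. DESeq2 called 1 in SW48 (CCN2), 0 in HT55 and 3 in SW948 (CCN1, LATS2 and WWTR1), beside 2.74%, 0.276% and 1.78%. The HCT15 and DLD1 calls were lost when any 1 replicate number was left out. In those fits CCN2 in HCT15 was 0.95 to 1.28 and TEAD4 in DLD1 was -0.28 to -0.21. Over all genes they called 0 to 27 in HCT15, against 137 with every library, and 581 to 1515 in DLD1, against 1978. Nothing is read from the member counts, which come from the contrast that chose the genes. With the replicate number as a block in the lines where same-numbered libraries deviated together, DLD1 gave 7 of 9 members (CCN1, CCN2, CCN3, AMOTL2 and LATS2 higher, TEAD1 and TEAD4 lower) beside 33.8% of all genes and HCT15 gave 5 of 10 (CCN3 and ANKRD1 added) beside 21.3%. In SW48 the blocked count was 2 of 9 (CCN2 and LATS2) beside 9.69%, and in HT55 it was 0 of 8 beside 0%, with 5 at an unadjusted p under 0.05 beside 15.3%. ANKRD1 in HCT15, CCN2 in SW48 and CCN1 in SW948 would not have met the read minimum from non-LRCs alone. Their places in these counts thus depend on the LRC libraries in which they were high. Leaving out HT55 non-LRC replicate 2, a choice made after seeing the data, gave 4 of 8 members in HT55 (CCN1, CCN2, AMOTL2 and LATS2, log2 differences of 0.56 to 1.34) beside 3.92% of all genes. Leaving out SW948 LRC replicate 4 gave 5 of 8 (CCN1, CCN2, AMOTL2, LATS2 and WWTR1, 0.50 to 2.30) beside 14.5%. Both libraries were left out because they resembled the other population, so these counts are no check of the difference.

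How far the LRC difference varied between lines was described with the line by population term over all 48 libraries, and since the genes were chosen with their values by line known, nothing is read from the counts. For CCN1 the differences ran from -0.76 in RKO to 2.03 in SW948, for CCN2 from 0.04 in RKO to 3.62 in SW48, and for AMOTL2 from -0.14 in SW48 to 0.84 in HT55. These 3 of 10 members passed by edgeR, beside 14.3% of all genes tested. With the replicate number as a block 8 members passed beside 33.6% of all genes, and LATS2, TEAD4, CCN3, WWTR1 and TEAD1 were added. DESeq2 called 5 beside 20.5%. Without RKO 0 passed by edgeR beside 1.02%, with 5 at an unadjusted p under 0.05 beside 15.6%. Without replicate 1 of every group 0 passed by edgeR beside 3.20%, with 3 unadjusted beside 17.7%.

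In the unsorted DLD1 controls the CCN genes, AMOTL2, LATS2 and both TEAD genes had their highest group means in CFSE-labeled cultures on day 1, and for CCN1, CCN2, AMOTL2 and LATS2 these means rested on 2 of 4 libraries. CCN2 was at 170, 156, 8.92 and 8.71 CPM there, against 3.62, 3.15, 2.01 and 1.61 CPM in unlabeled cultures of the same day. CCN1 was at 132, 131, 18.3 and 21.8 CPM against 15.5, 12.9, 9.81 and 14.1 CPM. Every labeled library exceeded every unlabeled one for both genes, and replicates 1 and 2, the pair that stood apart, exceeded replicates 3 and 4 by the widest margin. AMOTL2 was at 136, 149, 60.6 and 64.9 CPM against 49.1, 50.0, 33.1 and 82.7 CPM, so unlabeled replicate 4 made an overlap. LATS2 was at 70.8, 72.5, 41.1 and 43.2 CPM against 29.7 to 39.2 CPM, and TEAD1 at 260 to 284 CPM against 182 to 226 CPM, both without overlap. ANKRD1, too low to be tested there, was at 0.377, 0.506, 0.128 and 0.0968 CPM in labeled day 1 cultures and at 0.157, 0.0618, 0.230 and 1.18 CPM in unlabeled ones. Unlabeled replicate 4 was thus its highest library on day 1, as it was on day 5 at 1.34 CPM.

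The fitted log2 differences between labeled and unlabeled cultures on day 1 were 5.10 ± 0.85 for CCN2, 2.59 ± 0.51 for CCN1, 1.03 ± 0.25 for CCN3, 0.98 ± 0.28 for AMOTL2 and 0.84 ± 0.18 for LATS2. With TEAD4 (0.57 ± 0.14) and TEAD1 (0.45 ± 0.11), 7 of 9 members passed the threshold, all higher, beside 21.8% of all genes. YAP-TEAD targets outside the members did not move as a group. Of 16 tested, 5 passed, 3 higher and 2 lower, with a median log2 difference of 0.14. Of all 43 tested pathway genes outside the members, these targets included, 8 passed, 4 higher and 4 lower, with a median of 0.09. In replicates 1 and 2 alone the same 7 members passed beside 48.8% of all genes, with CCN2 at 5.55 and CCN1 at 3.18. In replicates 3 and 4 alone CCN2 passed, at 2.33 ± 0.30, beside 4.86%, and CCN1 was at 0.80 ± 0.20. Immediate early genes (FOS, JUN, EGR1 and 5 others), a class to which CCN1 and CCN2 are also assigned, moved with this split. Their summed level was 3559, 3067, 549 and 561 CPM in labeled day 1 cultures and 941, 867, 470 and 316 CPM in unlabeled ones. Their part in the result was not tested. Of the 7 epithelial markers VIL1 and CDX2 passed, both lower in the labeled day 1 cultures, with log2 differences of -2.34 ± 0.32 and -1.32 ± 0.35. The leukocyte markers summed to 26.2, 25.2, 12.3 and 12.9 CPM in labeled and to 3.12 to 6.37 CPM in unlabeled day 1 cultures, and 1 of the 3 tested passed, CD68 at 2.20 ± 0.34. PTPRC and CD3E were at 0 in both groups. The part of these markers was not tested either. On day 5, 0 of 9 members passed between labeled and unlabeled cultures, beside 5.13% of all genes (edgeR), with 2 at an unadjusted p under 0.05 beside 24.4% and 1 (TEAD1, 0.34 ± 0.11) called by DESeq2 beside 10.5%.

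**Figure D3:**
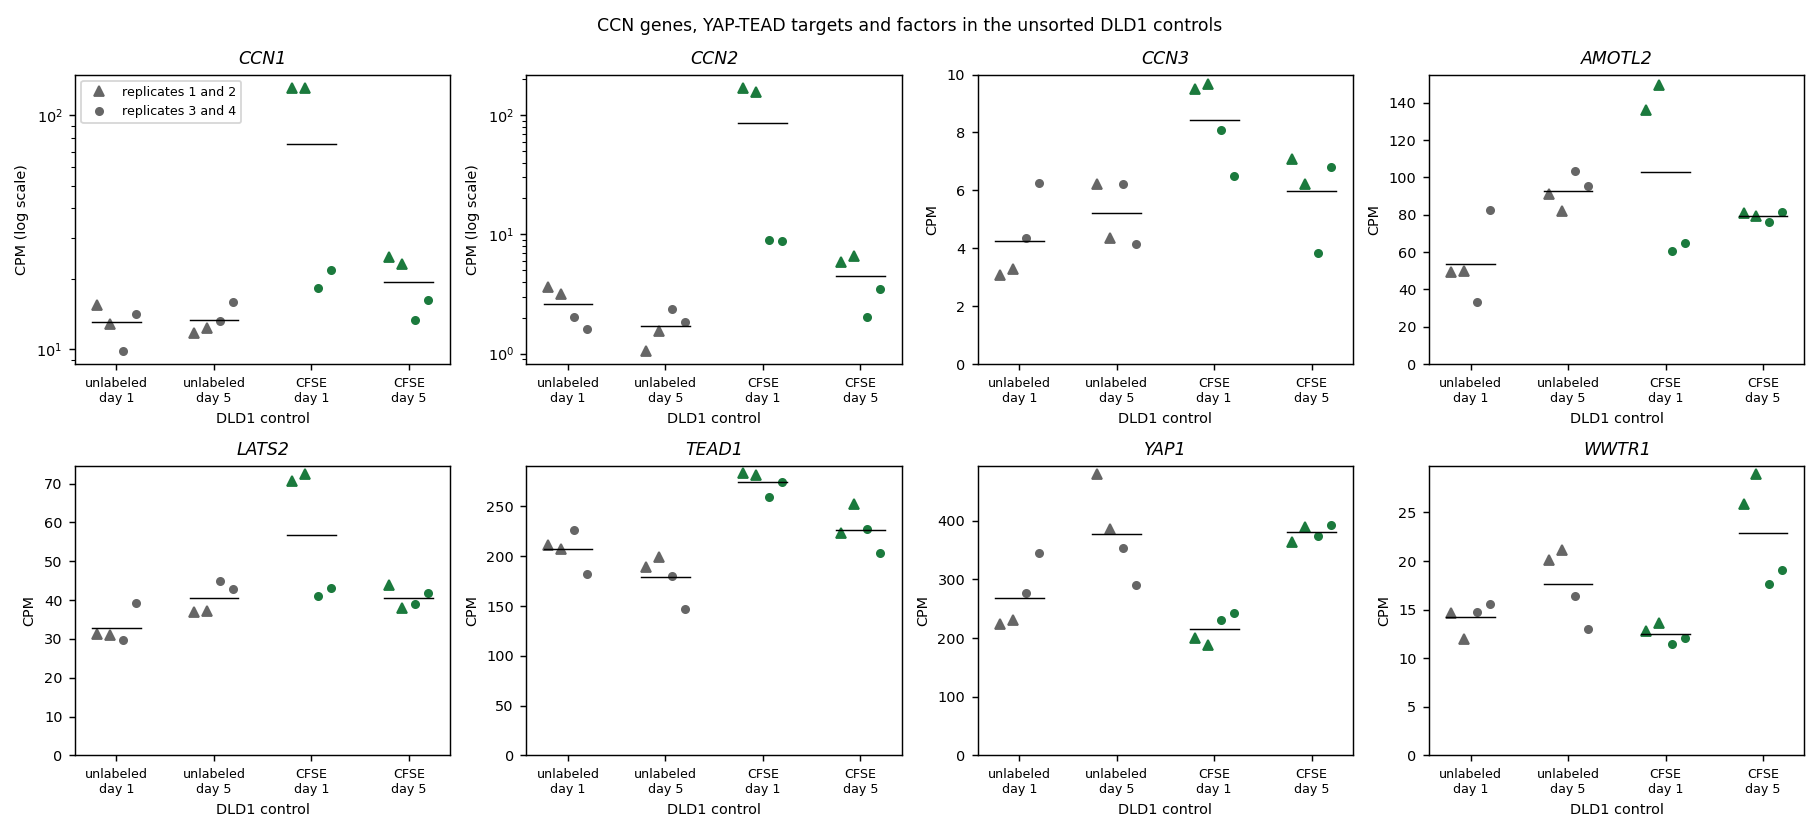
CPM of 8 members in the unsorted DLD1 controls by dye and day, with triangles for replicates 1 and 2, circles for replicates 3 and 4 and a line at the mean of 4. The axes of CCN1 and CCN2 are on a log scale and the others start at 0. The triangles of the CFSE day 1 group lie far above its circles for CCN1, CCN2, AMOTL2 and LATS2, and the means of YAP1 and WWTR1 are lowest in that group.

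Over time in culture CCN1 and CCN2 on one side and the coactivators on the other went in opposite directions in labeled cells. From day 1 to day 5 CCN2 fell to 5.81, 6.58, 2.02 and 3.50 CPM and CCN1 to 24.9, 23.0, 13.4 and 16.2 CPM, log2 differences of -4.37 ± 0.81 and -2.06 ± 0.50. YAP1 was at 199, 188, 230 and 243 CPM on day 1 and at 363, 389, 374 and 393 CPM on day 5, and WWTR1 went from 11.4 to 13.6 CPM up to 17.7 to 28.9 CPM, both without overlap. With LATS2 (-0.57) and TEAD1 (-0.35) lower, 6 of 9 members passed beside 39.3% of all genes. In replicates 1 and 2 alone 9 of 9 passed beside 55.9%, and in replicates 3 and 4 alone CCN2 (-1.82 ± 0.29) and YAP1 passed beside 13.7%. All 8 immediate early genes were lower on day 5. In unlabeled cultures 1 of 9 members passed, YAP1 at 0.45 ± 0.15, beside 25.5% of all genes. That call was lost without replicate 1, 2 or 3 (0.21 to 0.47) and in replicates 3 and 4 alone, where the difference was 0.00. Each of those fits called 0 of all genes tested. Without replicate 4 the YAP1 difference was 0.68 and passed, beside 6378 of 14236 genes. AMOTL2 in unlabeled cultures was at 82.1 to 103 CPM on day 5, and its overlap with day 1 came from replicate 4 of day 1 alone. Scaling by library size alone moved the median of all genes by -0.13 in unlabeled and by -0.11 in labeled cultures, and the share of called genes that were higher on day 5 went from 48.5% to 22.9% and from 51.4% to 36.1%. With that scaling the YAP1 difference in unlabeled cultures was 0.31 and did not pass, and that of TEAD1 was -0.39 and did. Reads outside genes also differed by day, at 12.15% to 14.8% on day 1 and 5.20% to 7.31% on day 5 in labeled cultures. In unlabeled ones they were at 8.96% to 13.6% and 5.19% to 8.35%. The part of this in the time differences was not tested. The dye comparison and the time comparison share the labeled day 1 libraries.

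The change of the dye difference from day 1 to day 5 rests on the same 16 libraries and on values that the choice of genes used, so it is a description too. It was -3.74 ± 1.20 on the log2 scale for CCN2, -2.04 ± 0.70 for CCN1, -1.21 ± 0.39 for AMOTL2 and -0.83 ± 0.25 for LATS2. By edgeR 0 of 9 members passed beside 0.999% of all genes, with 6 at an unadjusted p under 0.05 beside 17.0% and 3 (CCN2, AMOTL2 and LATS2) called by DESeq2 beside 4.29%. In replicates 1 and 2 alone CCN2 was at -3.28, and 5 members passed beside 34.6% of all genes. In replicates 3 and 4 alone CCN2 was at -1.99, and 0 members passed by edgeR beside 0.0144%, with 6 unadjusted beside 11.0%.

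Sorted DLD1 non-LRCs were compared with unsorted labeled DLD1 cultures of day 5. The rule for the genes does not name this contrast, but both groups entered contrasts that it does, so no p-value is given for a member. WWTR1 was lower after sorting, at 8.75, 10.2, 9.03 and 7.58 CPM against 25.8, 28.9, 17.7 and 19.0 CPM, a log2 difference of -1.33 ± 0.17 without overlap. AMOTL2 (-0.41 ± 0.07), CCN2 (-1.49 ± 0.39) and TEAD4 (-0.31 ± 0.10) were also lower, so 4 of 9 members passed by edgeR beside 64.6% of all genes. TEAD4 did not pass without replicate 1 (-0.26) or without replicate 2 (-0.29), fits that called 6744 of 13080 and 7306 of 13046 genes. CCN1 (-0.20 ± 0.21), CCN3 and LATS2 did not pass. YAP-TEAD targets outside the members were more often higher after sorting. Of 15 tested, 13 passed, 10 higher and 3 lower, with a median log2 difference of 0.83. Of all 42 tested pathway genes outside the members, these targets included, 31 passed, 18 higher and 13 lower, beside the same 64.6% of all genes. All 8 immediate early genes passed in this contrast and 7 were higher after sorting, FOS by 2.67 ± 0.23 on the log2 scale, whereas CCN2 was lower. Of 7 epithelial markers 3 were higher and 2 lower after sorting, and KRT20, a marker of differentiated colon cells, was at 32.0 to 37.1 CPM in sorted non-LRCs and at 0.574 to 1.68 CPM in the unsorted cultures. The fibroblast marker PDGFRB was higher (5.55 to 7.89 against 0.215 to 1.47 CPM) and COL1A1 lower (-1.30 ± 0.30), the endothelial marker VWF was higher (1.19 to 3.01 against 0.266 to 0.789 CPM), and of 2 leukocyte markers tested CD68 was lower (-1.05 ± 0.39). Sorting, the separate culture and the composition of the bulk cannot be told apart in this design.

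The other genes of the pathway were read from lists that the 10 members are not part of. Across the 6 lines, 13 of 45 tested genes (51 listed) passed between LRCs and non-LRCs by edgeR, 11 higher and 2 lower, beside 22.9% of all genes. Their median log2 difference was 0.11. That fit held a difference common to all lines, unpaired, with libraries as replicates. Its errors and p-values therefore do not measure the spread between lines. The lists were also chosen with earlier results of these data known, and the genes printed with p-values are those with the smallest in each list. These p-values are thus descriptions and no independent check of the members. Among 16 other YAP-TEAD targets, 6 were higher and 1 lower. They included IGFBP3, a secreted protein that binds insulin-like growth factors (1.25 ± 0.19, adjusted p = 2.98e-06), CRIM1 (0.19 ± 0.04, adjusted p = 0.000208), the matrix protein gene CCDC80 (0.52 ± 0.12, adjusted p = 0.000857) and the ARF GTPase activator gene ASAP1 (0.25 ± 0.06, adjusted p = 0.00181) by edgeR. AXL (0.11 ± 0.13), F3 (0.03 ± 0.08) and NUAK2 (0.04 ± 0.12), also known targets, did not pass. Of the 6 Hippo kinases and scaffolds, SAV1, the scaffold of the MST kinases, was higher (0.21 ± 0.04, edgeR adjusted p = 0.000581). Among 18 upstream regulators the angiomotin family gene AMOTL1 (1.39 ± 0.30, edgeR adjusted p = 0.000619), RASSF1 (0.22 ± 0.07, adjusted p = 0.0140) and WWC2 (0.29 ± 0.10, adjusted p = 0.0226) were higher. VGLL4, a cofactor that competes with YAP for TEAD, was higher (0.14 ± 0.03, edgeR adjusted p = 0.00123) and TEAD2 was lower (-0.31 ± 0.09, adjusted p = 0.0131). CCN6 was the 1 other CCN gene with enough reads and did not pass (0.26 ± 0.26).

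Among markers of other cells, CD68, a lysosomal protein of macrophages that these lines also express, was higher in LRCs (0.77 ± 0.14, edgeR adjusted p = 4.22e-05). CD79A was higher too (0.62 ± 0.22, edgeR adjusted p = 0.0373), but it was near the limit of detection, at no more than 1.56 CPM in any sorted library. PTPRC (-0.08 ± 0.24) and LYZ (-0.04 ± 0.10) did not pass, so 2 of 4 tested leukocyte markers passed, beside 22.9% of all genes. VIL1 was lower (-0.30 ± 0.10, adjusted p = 0.0241), 1 of 7 epithelial markers to pass by edgeR, beside the same 22.9%. The fibroblast markers COL1A1 (0.30 ± 0.15) and PDGFRB (0.08 ± 0.17) and the endothelial marker VWF (0.36 ± 0.15) did not pass. Of 8 immediate early genes, ATF3 alone passed across the 6 lines (1.19 ± 0.15, edgeR adjusted p = 2.89e-07), beside 22.9% of all genes. FOS (0.18 ± 0.21) and EGR1 (-0.01 ± 0.12) did not pass. In RKO, where CCN1 fell, all 8 passed, 5 higher and 3 lower, beside 41.5% of all genes in that line.

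Over the 16 group means of log2 CPM, the genes with patterns most like CCN1 were BRSK1 (r = 0.955), RNF152 (0.954) and ZNF23 (0.954). For CCN2 they were PHYHIP (0.858), HAP1 (0.857) and ENSG00000244951 (0.849), and for CCN3 they were CSF1 (0.987), MRAS (0.983) and RIC1 (0.983), each picked from 16899 genes. The groups share lines and these values are descriptions only.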

How the data were processed

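RNA from 64 samples (16 groups of 4) was sequenced by the authors as 50-base single reads. The submitters' processing notes name hg19 (GRCh37), TopHat, HTSeq and DESeq without versions, and the gene annotation is not given in the sources used here. What the authors deposited were whole-number counts for each gene and sample, without normalization, and reads outside genes (5.19% to 14.8%) or ambiguous (1.52% to 2.21%) were left out here. Reads shared with near-identical copies or overlapping genes are uncertain. Symbols, positions and merged exon lengths came from GENCODE release 44 on GRCh37.

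Counts were analyzed in R 4.3.3 with edgeR 4.0.16 (TMM, quasi-likelihood test, two-sided, Benjamini-Hochberg adjustment over all genes, threshold 0.05) on genes that reached 10 counts in 4 or more samples of the fit. Line was a covariate across the 6 lines, where libraries and not lines were the replicates. Single lines were fitted alone, and controls were fitted as 4 groups. CPM were scaled by TMM over all samples, and log2 CPM used a prior count of 2. Every error after a log2 difference is an approximate standard error (SE). It is the absolute log2 difference divided by the square root of its edgeR quasi-likelihood F. DESeq2 1.42.0, no filter, no TMM, a replicate block, 1 fit of all 48 sorted samples, leaving out RKO and leaving out each replicate number were alternatives, and other subsets were added after seeing the data. Fits were tested on simulated data.

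Genes named are all 10 members, up to 4 genes per pathway list with the smallest adjusted p under 0.05, and the 3 genes most like each CCN gene. AXL, F3, NUAK2 and the marker genes were chosen after their values were seen. Members, lists and tests were chosen with earlier results of these data known. For members the planned tests between lines, of dye by day and of sorting are therefore given as counts, levels and differences, without p-values. Replicates were biological by the study's methods. Same-numbered LRC and non-LRC samples correlated in their deviations from the group means at over 0.1 in every pair in DLD1 (0.151 to 0.319), HCT15 (0.231 to 0.418), HT55 (0.141 to 0.386) and SW48 (0.124 to 0.450), but not in RKO (-0.071 to 0.011) or SW948 (0.011 to 0.108), so the replicate block was read as pairing in those 4 lines. Among the control comparisons, same-numbered samples correlated at over 0.1 in every pair only between labeled day 1 and labeled day 5 (0.123 to 0.232). The main fit left these unpaired, and with the block the same 6 of 9 members passed, beside 6134 of 14518 genes. No 2 samples held identical counts. Intervals and floors cover counting error only.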

Additional observations from a re-analysis of the deposited data

Results flagged for a closer look

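For CCN1 every LRC library of SW948 was above every non-LRC library of that line (log2 difference 2.03) and every LRC library of RKO was below (-0.76). The difference between these lines was not tested, since the gene was chosen with these values known. A library far from the other 3 of its group was found in 6 of 139 sets of 4 libraries with a mean of at least 1 CPM (a gap to the nearest library, as a share of the range, above Dixon's 95% value), about what chance gives at 1 in 20. CCN1 in SW948 LRC replicate 4 was low at 1.13 CPM. CCN2 in HCT15 non-LRC replicate 2 was low at 2.87 CPM. AMOTL2 in SW948 non-LRC replicate 3 was low at 32.3 CPM. LATS2 in HCT15 non-LRC replicate 3 was low at 38.0 CPM. TEAD4 in unlabeled day 5 DLD1 replicate 1 was low at 18.9 CPM. WWTR1 in HT55 non-LRC replicate 2 was low at 60.5 CPM. Of these libraries, SW948 LRC replicate 4, HT55 non-LRC replicate 2 and HCT15 non-LRC replicate 2 also correlated better with the other population of their line across genes.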

How the results depend on the processing

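Counts are of members past an adjusted p of 0.05, with the calls over all genes in parentheses. Across the 6 lines 6 of 10 members passed (3803), and the count was 5 to 7 under every alternative run (2243 to 4237, the lowest without replicate 3). For single lines, 7 member and line pairs passed (7499). DESeq2 gave 11 (8563), no filter 21 (9268), all 48 samples in 1 fit 15 (6710), leaving out the 4 libraries nearer to the other population 16 (10188), the replicate block 20 (14096), and leaving out a replicate number 3 to 9 (4866 to 7040). The block was read as pairing only in DLD1, HCT15, HT55 and SW48. For the difference between lines, 3 passed (2380). DESeq2 gave 5 (3403), no filter 6 (2646), the replicate block 8 (5584), leaving out those 4 libraries 8 (4997), leaving out RKO 0 (166) and leaving out a replicate number 0 to 4 (522 to 2850). For time in the controls, 7 passed over both dyes (9401). DESeq2 gave 11 (10256), replicates 1 and 2 alone 16 (15566), replicates 3 and 4 alone 2 (1908), and leaving out a replicate number 5 to 9 (2858 to 12070). For dye, 7 passed over both days (3907), with 12 (10961) and 1 (679) in those pairs and 1 to 7 (338 to 4988) without a replicate number, the lowest without replicate 2. For dye by day, 0 passed (145). DESeq2 gave 3 (623), no filter 3 (454), replicates 1 and 2 alone 5 (4739), and leaving out a replicate number 0 to 3 (0 to 1068). For sorted against unsorted cells, 4 passed (8839), with 3 to 6 under the alternatives. Other pathway genes (13) gave 8 to 12 without a replicate number (2243 to 2945). Without a line they gave 10 (2378, without RKO) to 17 (4051, without HT55). The causes were not tested. Of 1325 calls of single members under alternatives 1142 were unchanged, 122 were gained and 61 lost, and no called difference changed sign. Fewer samples per fit and few reads of ANKRD1, of CCN3 in HT55 and SW948 and of CCN2 in SW48 limit these values.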
